A study of Ovis aries with 16 samples.

Results

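IL18 and IL13RA1 are 2 of the 1034 gene names on a sheep oligonucleotide array, and every probe carrying either name is described here, 5 of 15008 probes in all (3 for IL18 and 2 for IL13RA1). The genes were picked because their measured level in fetal hypothalamus was lower with hypoxia plus ketamine (HK) than with hypoxia alone (HC). That difference is therefore given as a description without a test, and so is every difference that uses the HC or HK arrays. The difference for ketamine under normoxia used none of those arrays and is the comparison that was tested. Its SE, confidence interval and limma p nevertheless took their spread from all 16 arrays, HC and HK included. Only its permutation test used the normoxia arrays alone.

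The samples were hypothalami of late-gestation Suffolk fetal sheep with chronic catheters, collected 24 h from the start of a stimulus lasting 30 min, hence with 23.5 h of normoxic recovery. The fetuses fell into normoxia control (NC, n = 3, intravenous saline then normoxia), normoxia plus ketamine (NK, n = 4, intravenous ketamine then normoxia), hypoxia control (HC, n = 5, saline then hypoxia) and HK (n = 4, ketamine then hypoxia). Hypoxia was produced by nitrogen gas passed into the trachea of the ewe, and ketamine is an anesthetic and an antagonist of the NMDA type of glutamate receptor. Each fetus had an array of its own, most fetuses were twins, littermates are not named in the labels, and the hypothalamus was taken as a block from one side of the brain, so it held many cell types.

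Interleukin-18, the product of IL18, is a cytokine of the interleukin-1 family that is made as an inactive precursor and cut by caspase-1. It signals through a receptor that recruits MYD88 and IRAK4 and leads to NF-kB activity, and together with interleukin-12 it is known for raising interferon gamma. IL13RA1 encodes a receptor chain that binds interleukin-13 and pairs with the interleukin-4 receptor chain to form a receptor for both cytokines, which acts through STAT6. In brain, microglia and macrophages are among the cells known to use both pathways.

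The sequences of 4 probes are shown because the tested values rest on them and because they tell how far the probes repeat each other. Each was 60 bases long, was copied from the scanner files and is written 5′ to 3′. Capitals in the IL18 probes mark the 20 bases that both probes share, and capitals in the second IL13RA1 probe mark an in-frame stop codon at its end.

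IL18 A_70_P050912: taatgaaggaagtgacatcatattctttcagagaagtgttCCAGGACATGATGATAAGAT
IL18 A_70_P050911: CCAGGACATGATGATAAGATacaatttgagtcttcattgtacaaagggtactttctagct
IL13RA1 A_70_P002812: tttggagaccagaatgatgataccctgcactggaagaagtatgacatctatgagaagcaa
IL13RA1 A_70_P002811: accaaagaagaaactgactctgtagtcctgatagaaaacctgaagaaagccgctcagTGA

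The IL18 probes start at positions 557 and 597 of the same reference transcript, so they are overlapping readings of one stretch and not independent evidence. The IL13RA1 probes lie end to end, at positions 1086 and 1146 of one deposited sequence. Apart from the overlapping IL18 pair, no other probe on the array shared a run of 20 bases with any of the 5 on either strand. The third IL18 probe, A_70_P041761, was designed on an expressed sequence tag. The files name no genome build for the probes, so no coordinates are given.

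Signal separated the 5 probes into 3 that could be compared and 2 that could not. Both overlapping IL18 probes and the IL13RA1 probe A_70_P002812 were well above background, by the scanner software's own mark, on all 16 arrays. A_70_P002811 reached that mark on 2 arrays and A_70_P041761 on 1 array, which was short of the 3 arrays required for testing. The 3 tested probes were still in the dimmer part of the array. Their mean levels lay at the 35.3 percentile (A_70_P050911), the 34.5 percentile (A_70_P050912) and the 23.4 percentile (A_70_P002812) of the 12249 tested probes, and the median ratio of raw foreground to local background was 11.1, 13.0 and 5.52 in the same order. None of these spots was saturated or marked as an outlier on any array.

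**Figure D1:**
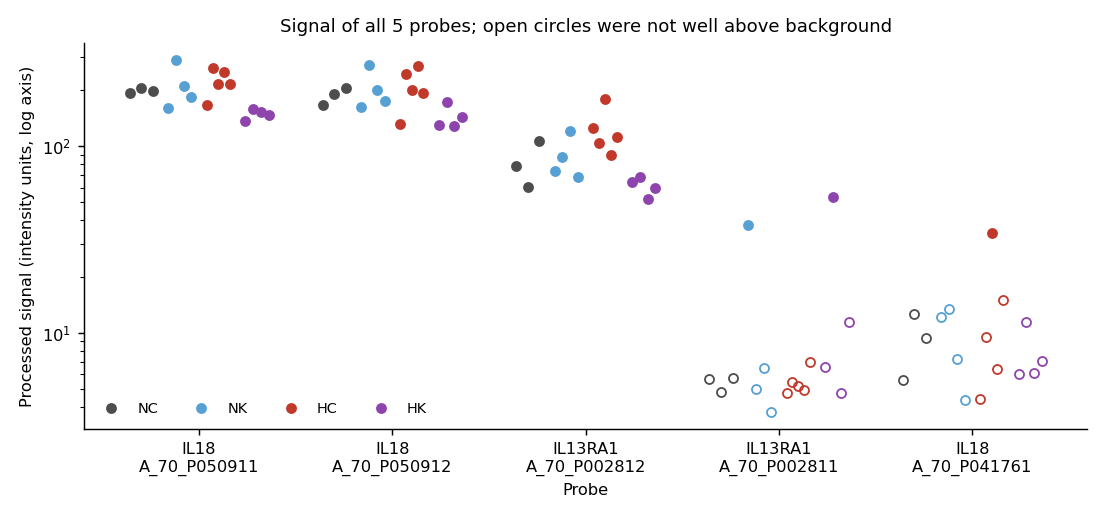
Processed signal in intensity units on a log axis for the 5 probes named IL18 or IL13RA1, with 1 circle for each of the 16 arrays colored by group and open where the spot was not well above background. The 3 probes on the left were measured on all arrays, and the HK circles of A_70_P002812 lay between 52.3 and 68.0 intensity units.

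Values are log2 signal minus the 75th percentile of the array, so that a more negative value is a lower level, and a difference of 1 between groups is a doubling. Levels of different probes are not compared with each other.

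IL13RA1 had the wider difference between HK and HC. On A_70_P002812 the HC arrays were at -3.31, -3.94, -3.06, -3.94 and -3.63. The HK arrays were at -4.35, -4.23, -4.72 and -4.49. Every HK array was below every HC array, with a gap of 0.29 between the highest HK and the lowest HC array, a pattern that 0.49% of all tested probes had in that direction. Group means were -3.58 ± 0.39 (SD, n = 5) in HC and -4.45 ± 0.21 (SD, n = 4) in HK, a difference of -0.87 ± 0.21 (SE), or 1.83-fold lower in HK. Among all tested probes, 3.79% were lower in HK than in HC at limma's unadjusted p under 0.05. Both shares are given as background only, since the gene was picked on this difference.

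IL18 was lower in HK by a smaller amount. On A_70_P050911 the HC arrays were at -2.90, -2.60, -2.81, -2.46 and -2.70, and the HK arrays were at -3.26, -3.01, -3.18 and -3.19. The groups did not overlap, and the gap between them was 0.11. Every HK array was below every HC array on 0.49% of all tested probes, given as background only. The HC mean was -2.69 ± 0.17 (SD, n = 5) and the HK mean -3.16 ± 0.10 (SD, n = 4), a difference of -0.47 ± 0.13 (SE), or 1.38-fold lower in HK.

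The overlapping probe gave a like difference with more scatter. On A_70_P050912 the HC arrays were at -3.25, -2.71, -2.90, -2.35 and -2.84, and the HK arrays were at -3.33, -2.90, -3.43 and -3.23. Here the groups overlapped, because HC1 was lower than 2 of the 4 HK arrays and HK2 was level with HC3. The difference was -0.41 ± 0.17 (SE), or 1.33-fold lower in HK, and all 4 HK arrays were below the HC mean of -2.81.

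**Figure D2:**
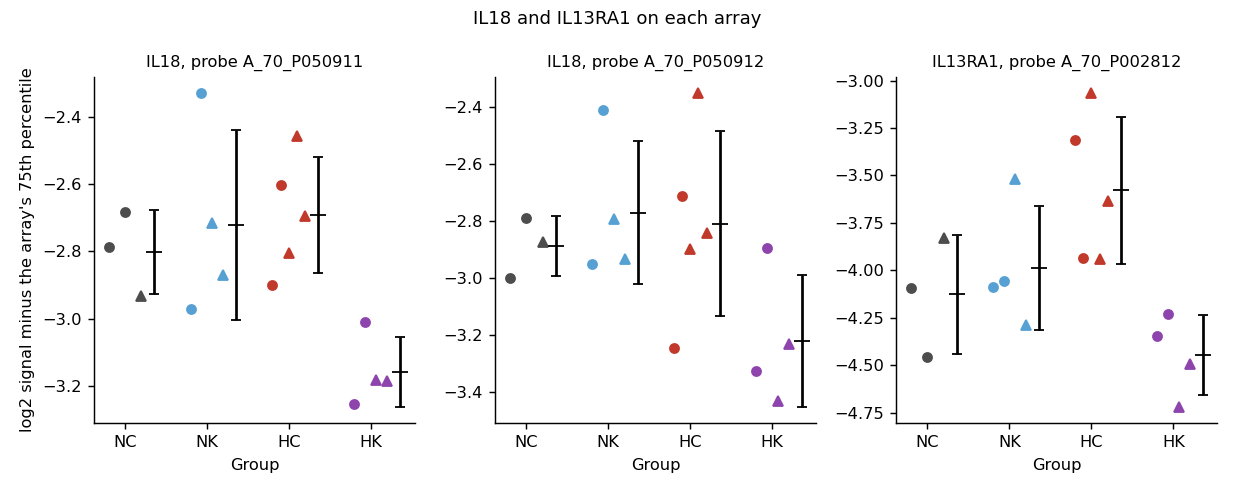
Log2 signal minus the 75th percentile of the array (vertical axis) for the 3 tested probes in the 4 groups, with a circle for each array of slide 1, a triangle for each array of slide 2, and the group mean ± SD in black. The HK arrays of A_70_P050911 and A_70_P002812 all lay below the HC arrays, whereas NC and NK overlapped on all 3 probes. Every HK array lay below every HC array on 0.49% of all tested probes.

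Ketamine under normoxia did not give a measurable difference in either gene. The NC arrays of A_70_P002812 were at -4.10, -4.45 and -3.83 and the NK arrays at -4.09, -4.06, -3.52 and -4.29, so that the groups overlapped, with NC2 lowest and NK3 highest. The IL13RA1 difference, NK minus NC, was 0.14 ± 0.24 (SE), with a 95% confidence interval from -0.37 to 0.65. Limma gave an adjusted p = 1, and the exact two-sided permutation test over the 7 arrays p = 0.629, where the smallest value that its 35 arrangements allow is 0.0571.

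For IL18 on A_70_P050911, the NC arrays were at -2.79, -2.68 and -2.93 and the NK arrays at -2.97, -2.33, -2.71 and -2.87, with NK2 above all others and NK1 below. NK minus NC was 0.08 ± 0.14 (SE), with a 95% confidence interval from -0.23 to 0.39, and p = 0.8 by the exact permutation test (limma's adjusted p = 1). On A_70_P050912 it was 0.12 ± 0.19 (SE), interval -0.30 to 0.53, and p = 0.686 by the exact permutation test (limma's adjusted p = 1). None of the 3 probes passed limma's unadjusted threshold, which 0.865% of all tested probes passed upward and 0.22% downward. The 3 estimates were slightly above 0, and the intervals held both rises and falls. Without NK2 the IL18 estimates were below 0, as was that of IL13RA1 without NC2 or NK3.

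For IL13RA1 the level after hypoxia alone was above that of NC by an amount that depended on the processing. IL13RA1 was 0.55 ± 0.23 (SE) higher in HC than in NC on the log2 scale, or 1.46-fold, but by 0.14 ± 0.11 (SE) with the authors' deposited values and 0.12 ± 0.09 (SE) with normexp, another background correction. All 5 HC arrays were above the NC mean and 3 were above every NC array. The highest were HC3 and HC1, and HC2 and HC4 lay within the range of NC. IL18 differed between HC and NC by 0.11 ± 0.14 (SE) on A_70_P050911 and by 0.08 ± 0.18 (SE) on A_70_P050912, which is within the spread of the arrays. Upward calls at the unadjusted threshold made up 4.22% of tested probes in this comparison.

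Against ketamine under normoxia, HK was lower on all 3 probes. The difference HK minus NK was -0.46 ± 0.22 (SE) for IL13RA1, and 3 of the 4 HK arrays were below every NK array. For IL18 it was -0.44 ± 0.13 (SE) on A_70_P050911, where the groups were apart by 0.04, and -0.45 ± 0.18 (SE) on A_70_P050912, where they overlapped. The share of all tested probes with HK arrays apart from NK arrays in this way was not counted. This comparison shares the HK arrays with the one that picked the genes, and 6.31% of all tested probes were lower in HK at the unadjusted threshold.

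The order of the mean levels is given for each tested probe. For IL13RA1 the means were -3.58 in HC, -3.99 in NK, -4.13 in NC and -4.45 in HK. For IL18 on A_70_P050911 they were -2.69 in HC, -2.72 in NK, -2.80 in NC and -3.16 in HK. On A_70_P050912 they were -2.77 in NK, -2.81 in HC, -2.89 in NC and -3.22 in HK, so the order of HC and NK was not shared by the IL18 probes. The arrays of HC, NK and NC overlapped on both. HK, the group on which the gene was picked, was lowest on both, apart from the other groups' arrays on A_70_P050911 and overlapping all of them on A_70_P050912. The share of all tested probes apart in this way was counted only for HK below HC, at 0.49%. For IL13RA1 the ranges of HC and NK, of NK and NC, and of NC and HK all overlapped. The difference of differences, (HK minus HC) minus (NK minus NC), was -1.01 ± 0.32 (SE) for IL13RA1 and -0.55 ± 0.19 (SE) and -0.53 ± 0.26 (SE) for IL18 on A_70_P050911 and A_70_P050912, and was likewise not tested.

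**Figure D3:**
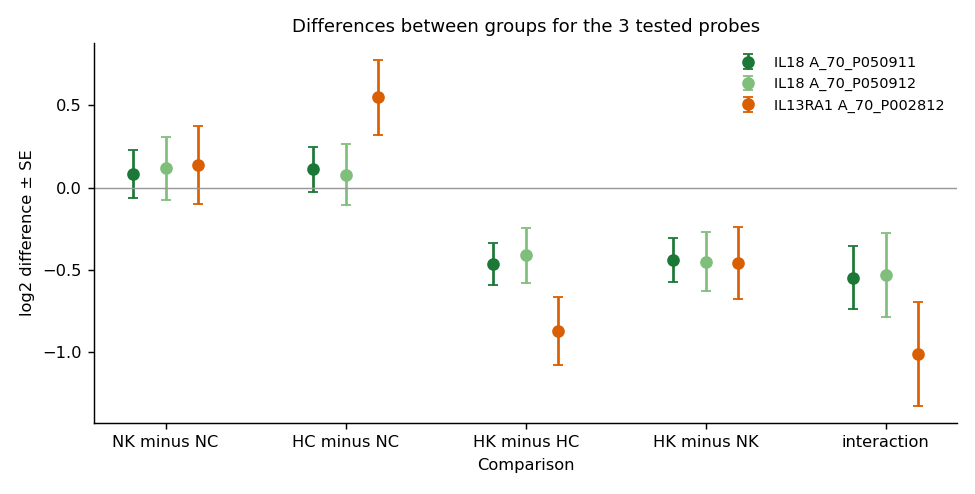
Log2 differences between groups (vertical axis) with SE bars for the 3 tested probes in each comparison, the interaction being the ketamine difference after hypoxia minus that after normoxia. NK minus NC lay between 0.08 and 0.14 on the 3 probes, and HK minus HC between -0.41 and -0.87.

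The arrays came on 2 slides, each holding arrays of all 4 groups. HK minus HC for IL13RA1 was -0.66 within slide 1 (2 arrays against 2) and -1.06 within slide 2 (2 against 3). For IL18 on A_70_P050911 it was -0.38 and -0.53. On both slides the HK arrays of these probes lay below the HC arrays. The share of all tested probes doing so within a slide was not counted. For A_70_P050912 the difference was -0.13 within slide 1, where the groups overlapped, and -0.64 within slide 2, where they did not. With slide as a block, the differences were -0.86 for IL13RA1 and -0.47 and -0.41 for IL18.

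HC minus NC also varied between slides. For IL13RA1 it was 0.65 within slide 1 (2 against 2) and 0.28 within slide 2 (3 against 1), and for IL18 on A_70_P050911 it was -0.02 and 0.28. NK minus NC for IL13RA1 was 0.20 within slide 1 and -0.08 within slide 2. HK minus HC and HK minus NK were below 0 within both slides on all 3 probes, whereas HC minus NC and NK minus NC were not on the same side of 0 throughout.

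The size of these differences was smallest, among the scalings and filters run, with values made by normexp and quantile normalization. The processed signal has the background subtracted, whereas the authors' deposited log2 values come from normexp and quantile normalization between arrays. The normexp alternative run here used an offset of 50 intensity units, and the offset behind the deposited values is not given here. The parts of these steps were not tested apart. With the deposited values, HK minus HC was -0.29 ± 0.10 (SE) for IL13RA1, -0.22 ± 0.07 (SE) for IL18 on A_70_P050911 and -0.22 ± 0.08 (SE) on A_70_P050912. The direction was kept on all 3 probes, and the size shrank most for IL13RA1, the dimmest of them.

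**Figure D4:**
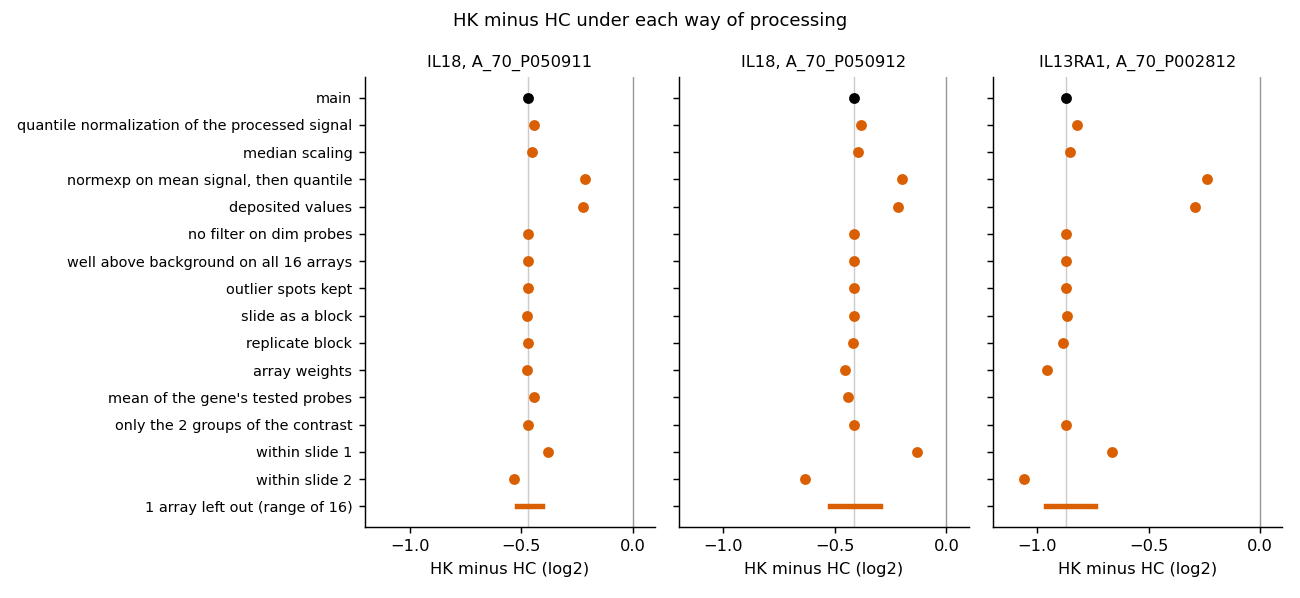
HK minus HC on the log2 scale (horizontal axis) for the 3 tested probes under each way of processing (rows), with the reported value in black and, in the lowest row, the range when each of the 16 arrays was left out in turn. All points lie below 0, and those of the deposited values and of normexp lie between -0.20 and -0.29, nearest to 0 apart from the value of -0.13 within slide 1 for A_70_P050912.

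Over the 16 arrays, the IL18 probes followed each other and IL13RA1 did not follow IL18 within groups. Pearson's r was 0.91 between the overlapping IL18 probes (Spearman's rho 0.86), and 0.87 after group means were removed. Between A_70_P050911 and the IL13RA1 probe r was 0.37 (rho 0.43), and -0.32 after group means were removed. HC3 illustrated this, with the highest IL13RA1 value of all arrays and an IL18 value below the HC mean. HC4 had the highest IL18 of its group and, with HC2, the lowest IL13RA1. These coefficients are descriptions of points that share arrays, slides and groups.

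**Figure D5:**
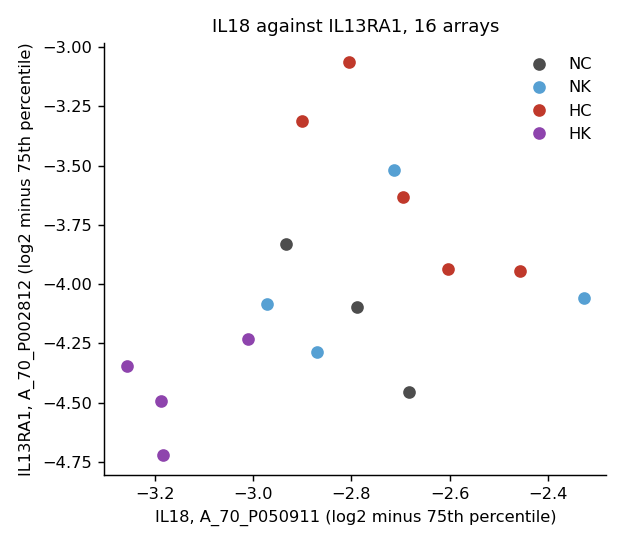
IL13RA1 on A_70_P002812 (vertical axis) against IL18 on A_70_P050911 (horizontal axis), both as log2 signal minus the 75th percentile, with 1 point for each of the 16 arrays colored by group. The HK points lie together at low values of both, and the HC points spread from high IL13RA1 with lower IL18 to the reverse.

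Of 27 genes listed for the IL-18 pathway, 10 had a named probe and 9 were tested, IL18 included. The receptor chains, IL18BP and CASP1 were not analysed here. Of the 8 others, 1 was lower in HK than in HC at the unadjusted threshold and none higher, against 3.79% lower and 3.25% higher over all tested probes. It was NFKBIA, an inhibitor of NF-kB that is itself an NF-kB target, at -0.74 ± 0.33 (SE), with an adjusted p = 0.698 by limma. Their median difference was -0.46, beside 0.03 over all tested probes. The count was 0 without HC1, HC4, HK3 or HK4, 2 without HC3 or HK2 and 3 without HC5.

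The other genes of the 8 did not pass for HK minus HC on their brightest probe. IL1RN, the interleukin-1 receptor antagonist, was at -0.99 ± 0.61 (SE), and IL1B, a cytokine of the interleukin-1 family that caspase-1 also cuts, at -0.76 ± 0.38 (SE). IL1A was at -0.60 ± 0.36 (SE) and IRAK4, a kinase of the same receptor complex, at -0.32 ± 0.31 (SE), with limma's adjusted p-values from 0.724 to 0.846 over these 4 genes. The dimmer probes of IL1A, at -1.15, and of IRAK4, at -0.52, did pass the unadjusted threshold, so the probes of each gene shared a direction but not a call. MYD88, the adaptor of the IL-18 receptor, was at 0.07 ± 0.21 (SE), and IFNG, the best known target, at 0.17 ± 0.55 (SE). The dimmer MYD88 probe was at -0.19, on the other side of 0, and did not pass.

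After hypoxia alone, 3 of the 8 rose in HC against NC and none fell, beside 4.22% higher and 3.93% lower over all tested probes, and without NC2 the count was 1. NFKBIA was higher by 1.37 ± 0.36 (SE), IL1RN by 1.46 ± 0.66 (SE) and IL1B by 1.08 ± 0.42 (SE), with limma's adjusted p-values from 0.342 to 0.591. IL1RN was well above background on 1 of 3 NC and 0 of 4 NK arrays, against 4 of 5 HC and 3 of 4 HK. It thus met the filter for testing through the hypoxia groups, and its rise rests partly on dim spots. Among genes well above background on all 16 arrays, 2 of 5 rose. IL1A, at 0.67 ± 0.39 (SE), and IFNG, at 0.55 ± 0.60 (SE), did not pass. The same comparison gave 0.11 and 0.08 for IL18 itself. None of the 8 passed for NK minus NC.

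Of 30 genes listed for interleukin-13 and interleukin-4, 6 had a named probe and 4 were tested, IL13RA1 included. IL13 and IL4, the ligands, had probes that were not tested because they were dim, and IL4R, IL13RA2, IL2RG and STAT6 were not analysed here. Of the 3 others, PPARG, a nuclear receptor induced by interleukin-4 in macrophages, was lower in HK than in HC, at -0.39 ± 0.15 (SE; limma's adjusted p = 0.685), and higher in HC than in NC, by 0.36 ± 0.16 (SE; adjusted p = 0.591). Both passed the unadjusted threshold, but the first did not without HC2, HC4, HK1 or HK2, and the second passed in 13 of 27 alternatives. CHI3L1, a secreted glycoprotein of activated macrophages and astrocytes, was at -0.39 ± 0.42 (SE) for HK minus HC and at 0.50 ± 0.46 (SE) for HC minus NC. GATA3, a transcription factor of type 2 helper T cells, was at 0.18 ± 0.70 (SE) and -0.68 ± 0.76 (SE). None of these 3 genes passed for NK minus NC.

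Other cytokines and receptors give the setting for both genes. Of 13 other cytokines tested, 2 were lower in HK than in HC (TNF at -1.62 ± 0.57 SE and IL6 at -1.59 ± 0.60 SE) and none higher, beside 3.79% lower and 3.25% higher over all tested probes. The count was 1 without HC4 and 4 without HC5. TNF and IL6 were each well above background on 3 of 4 HK arrays, so their differences rest partly on dim spots. Among the cytokines well above background on all 16 arrays, 0 of 6 were lower, with a median of 0.004. Of 8 other cytokine receptors tested, 1 was lower, GHR, the growth hormone receptor, at -0.63 ± 0.27 (SE), and none higher. It did not pass without HC1, HC3, HC5, HK1 or HK3. The medians for HK minus HC were -0.47 and -0.18. In HK minus NK, TGFB2 and GHR were lower and no gene of these 2 lists higher, beside 6.31% lower and 2.38% higher over all tested probes. Neither passed without NK3 or HK1, nor TGFB2 without NK1, nor GHR without NK2 or HK3. Limma's adjusted p-values for HK minus HC lay between 0.685 and 0.698 for TNF, IL6 and GHR. These genes and TGFB2 were named because they passed the threshold.

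Genes whose level most followed each member over the 16 arrays were ranked by Pearson's r among 867 named genes. For IL13RA1 they were BCL2, an inhibitor of cell death (r = 0.72), GHR (0.72), the gene named IGFR1 on the array (0.681), FGF2, a growth factor (0.679), and COL4A3, a collagen chain of basement membrane (0.622). With slide means removed, CP, the copper-carrying ferroxidase ceruloplasmin, came first (0.758), and IGFR1, GHR and BCL2 stayed among the first 5 with PUS1. CP was well above background on 7 arrays, so that its r rests partly on dim spots.

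For IL18 on A_70_P050911 the first 5 were LOC100147796 (r = 0.748), COL2A1, a collagen of cartilage (0.67), TFAP2A, a transcription factor (0.644), LOC100037683 (0.642) and CAST, the calpain inhibitor (0.641). With slide means removed LOC100147796, COL2A1 and LOC100037683 stayed, beside the genes named PKG1 BETA (0.705) and glut4 (0.649). TFAP2A was well above background on 4 arrays and LOC100037683 on 6. All points share arrays and groups, and with HK low in each member any gene low in HK gives a positive r.

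Some markers of microglia and macrophages differed in the same comparisons. Of 23 such genes 8 were tested. In HK against HC, 3 were lower (CD14 at -1.35 ± 0.55 SE, TLR2 at -0.82 ± 0.27 SE and C3 at -0.59 ± 0.24 SE) and none higher, beside 3.79% lower and 3.25% higher over all tested probes, with a median of -0.49 and limma's adjusted p-values from 0.685 to 0.689. LYZ, at 0.51, CD80, at 0.46, ITGAM, at -0.08, and TLR4 and CD86, both at -0.49, did not pass. On their dimmer probes CD86 did pass, at -0.90, and CD14 did not, at -1.18. The count of lower markers was 1 without HC2 or HK3 and 5 without HC1. Against NC, HC was higher in 6 and lower in none, beside 4.22% higher and 3.93% lower over all tested probes, with a median of 0.77, but in 2 when NC1, NC2, NC3, HC2 or HC3 was left out, and in NK against NC none passed. The summed level of the 8, as a multiple of the 75th percentile of the array, ranged from 9.45 to 11.8 in NC, 11.6 to 13.9 in NK, 9.76 to 17.3 in HC and 5.98 to 12.6 in HK, and C3 made up most of it. In a block of tissue, fewer cells of a type and less RNA per cell cannot be told apart, and the part of these cells in the IL18 and IL13RA1 differences was not tested.

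As for the labelled tissue, the hypothalamic peptides SST, OXT, POMC and NPY were measured well above background on all 16 arrays. Of 8 hypothalamic peptides tested, none passed for HK minus HC. Beside 3.25% higher over all tested probes, 1 of 5 anterior pituitary genes, LHB, was higher in HK than in HC by 0.19 ± 0.08 (SE). Of 7 endothelial genes 1, OCLN, was higher by 0.91, and the median of the list was 0.19. SELP, at -1.80, ICAM1, at -0.87, FLT1, at -0.44, PECAM1, at 0.19, KDR, at 0.35, and SELE, at 0.47, did not pass. Of 4 astrocyte genes none passed. TTR, the choroid plexus marker, was at -0.39 and HBB, of red cells, at -0.24, and neither passed. AIF1, CX3CR1 and the oligodendrocyte markers were not analysed here.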

How the data were processed

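Total RNA of 16 fetal hypothalami was measured on single-color (cyanine 3) Agilent arrays for sheep. The deposited scanner files hold intensity values written by Feature Extraction 10.1.1.1 per the file headers. In its processed signal the background is subtracted, and the authors had not scaled it between arrays. A second deposited table holds log2 values, which normexp on the median signal followed by quantile normalization gave again within 5e-09 at the best of several offsets tried. The genome build is not given in the sources used here.

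Control spots (536) and outlier spots (0.0801%) were left out, log2 processed signal minus the 75th percentile of each array was averaged over spots of a probe, and of 15008 probes the 12249 that exceeded background clearly on 3 or more arrays entered the tests. The 75th percentile ranged from 1247.8 to 1596.6 intensity units, and 71.6% to 80.5% of spots were well above background. The number of arrays limits the precision. Limma 3.58.1 in R 4.3.3 fitted the 4 groups together (13.7 total degrees of freedom), with two-sided tests, an unadjusted threshold of 0.05 as in the study's methods, and Benjamini-Hochberg adjustment over all tested probes. The script was tested on simulated data. P-values measure the spread between fetuses, and relatedness of twins was not modelled.

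The members and gene lists were chosen with earlier results of these data known. A listed gene was represented by its brightest tested probe. The genes named were the 5 of each pathway list with the largest differences in HK minus HC and in HC minus NC, the 5 named genes most correlated with each member, and defining cell markers. MYD88, as the receptor's adaptor, and genes of the other lists were named after their values were seen. Alternatives covered scaling, background correction, filters, blocks, weights and each array left out.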

Additional observations from a re-analysis of the deposited data

Results flagged for a closer look

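Signal was also present on the dim probes that entered no comparison. The IL13RA1 probe A_70_P002811 was well above background on NK1, at 37.64 intensity units, and on HK2, at 53.15. It was at 6.97 units or lower on every NC and HC array, and from 3.78 to 11.4 units on the other NK and HK arrays. The IL18 probe A_70_P041761 was well above background only on HC3, at 34.07 units. On those arrays the adjacent IL13RA1 probe A_70_P002812 was not raised in the same way, at 73.9 units on NK1 and 68.0 on HK2, and IL18 on HC3 was at 214.2 on A_70_P050911. On the 3 tested probes, no array was set apart by Dixon's criterion in any of the 9 groups of 4 or 5 arrays examined.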

How the results depend on the processing

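HK minus HC stayed below 0 on all 3 tested probes under every alternative run. The exact permutation test was added after the data were seen. Normexp on the mean signal followed by quantile normalization, and the deposited values, gave smaller differences. In that order, IL18 on A_70_P050911 was at -0.21 and -0.22 for HK minus HC, -0.20 and -0.21 for HK minus NK, and -0.25 and -0.26 for the interaction. IL13RA1 was at -0.24 and -0.29 for HK minus HC, -0.12 and -0.18 for HK minus NK, -0.24 and -0.32 for the interaction, and 0.12 and 0.14 for HC minus NC. The interaction of A_70_P050912 was -0.25 with normexp. Within slide 2, HC minus NC of IL18 on A_70_P050911 was 0.28. The cause of these shifts was not tested.

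With each array left out in turn, HK minus HC ranged from -0.52 to -0.41 (A_70_P050911), -0.52 to -0.30 (A_70_P050912) and -0.96 to -0.74 (IL13RA1). HK minus NK ranged from -0.52 to -0.31, -0.56 to -0.33 and -0.56 to -0.30 in the same order, the interaction from -0.63 to -0.42, -0.64 to -0.41 and -1.16 to -0.85, and HC minus NC from 0.04 to 0.17, -0.04 to 0.19 and 0.38 to 0.70. NK minus NC ranged from -0.05 to 0.16, -0.004 to 0.18 and -0.03 to 0.29. It was below 0 for IL18 without NK2 and for IL13RA1 without NC2 or NK3, and never passed the threshold.

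Counts of called probes depended on single arrays. HK minus HC went from 507 (without HK3) to 1242, HC minus NC from 620 (without NC2) to 1317, HK minus NK from 767 to 1458, and NK minus NC from 119 to 232, with 232 without NC1 and 231 without NK1. NK minus NC gave 86 calls with normexp, 85 with probes well above background on all 16 arrays, 275 with array weights and 220 with only its groups fitted. HK minus HC gave 522 with only its groups fitted, and HK minus NK 1652 with array weights. Lower microglia and macrophage markers in HK numbered from 1 to 5 of those tested over 27 alternatives. Higher ones in HC against NC numbered from 2 to 6. NFKBIA and PPARG each passed for HK minus HC in 21 of 27, PPARG for HC minus NC in 13 of 27, and IL1RN for HC minus NC in 11 of 26.

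Whether replicate numbers paired the arrays was not settled. Same-numbered arrays always shared a slide, so their correlation alone could not tell pairing from slide. Deviations of 21 same-numbered pairs correlated at -0.06 to 0.35, with 15 pairs over 0.1. Once slide was removed they correlated at -0.22 to 0.09, with 0 pairs over 0.1. The highest differently numbered pair on one slide, HC5 with HK3, was at 0.45, and at 0.15 once slide was removed. With the replicate number as a block, HK minus HC was -0.88 for IL13RA1 and -0.47 and -0.42 for IL18. It had 1142 probes called, beside 994 with slide as a block. NK minus NC passed on none of the 3 probes with the replicate block, with 187 called over the array. The replicate block changed no call of the members.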
